A study of Homo sapiens with 8 samples.

Results

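The genes described are 10 members of the NF-κB system in recipient fibroblasts, 5 subunits of the transcription factor (NFKB1, NFKB2, RELA, RELB and REL) and 5 feedback inhibitors (NFKBIA, NFKBIE, NFKBIZ, TNFAIP3 and BIRC3). They were taken by gene symbol from a table of 27696 genes, of which 13798 had enough counts to be tested, and all 10 were among those tested. The cells were IMR90, a widely used line of primary human lung fibroblasts, which spent 3 days in conditioned medium of IMR90 ER:RAS fibroblasts, cells that carry a RAS oncogene that 4-hydroxytamoxifen (4-OHT) switches on. D0, D4, D7 and D10 name the day of 4-OHT at which the medium was taken, so all groups received conditioned medium and D0 is the control. Poly(A)+ RNA of each group was sequenced in 2 independent experiments, which gave 8 libraries of 11708193 to 13395912 counts. The recipients are 1 fibroblast strain without the construct, and no group kept in fresh medium was analysed here. Expression is given as CPM, counts scaled to a common library size with edgeR's TMM method.

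NF-κB proteins work as dimers that IκB proteins hold in the cytoplasm. Inflammatory signals activate IκB kinase, IκB is marked with ubiquitin and degraded, and the freed dimers enter the nucleus and switch on genes for chemokines, cytokines and survival proteins. Among the genes they switch on are IκB proteins and ubiquitin-editing enzymes that turn the signal off again, and in senescent fibroblasts NF-κB is a main driver of the inflammatory secretome. RELA encodes p65 and REL encodes c-Rel, which carry transactivation domains, while NFKB1 and NFKB2 encode the precursors p105 and p100, from which the DNA-binding subunits p50 and p52 are made. RELB encodes the partner of p52 in the non-canonical pathway. NFKBIA and NFKBIE encode the cytoplasmic inhibitors IκBα and IκBε, and NFKBIZ encodes the nuclear protein IκBζ, which restrains some target genes and is needed for others. TNFAIP3 encodes A20, a ubiquitin-editing enzyme that shuts down signalling upstream of IκB kinase, and BIRC3 encodes cIAP2, a ubiquitin ligase of receptor complexes.

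The sequences before the start sites of these genes are shown because NF-κB dimers bind κB motifs in the promoters of many genes, several of the 10 among them. The table of promoters from RefSeq (GRCh38.p14) held 13 windows for 8 of the genes and none for RELB and NFKBIE. The 250 bases before each start were searched on both strands for the 10 letters of the κB consensus, and matches could overlap. A match was present in 9 of the 13 windows and in at least 1 window of 7 of the 8 genes, all but RELA, against 9.96% of 35116 windows and 11.8% of 27305 genes in the table. The 4 sequences below come first, with the matches in capitals, and are the stretches before the annotated exons of NFKBIA (chr14:35404750-35404999, minus strand), NFKBIZ (chr3:101827740-101827989, plus strand), BIRC3 (chr11:102317234-102317449, plus strand) and NFKB1 (chr4:102501109-102501328, plus strand), each read towards the gene.
NFKBIA: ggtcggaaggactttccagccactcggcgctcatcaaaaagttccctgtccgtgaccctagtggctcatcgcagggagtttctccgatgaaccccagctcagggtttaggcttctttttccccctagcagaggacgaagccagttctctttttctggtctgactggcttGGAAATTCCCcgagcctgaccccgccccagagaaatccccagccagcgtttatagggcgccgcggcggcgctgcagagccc
NFKBIZ: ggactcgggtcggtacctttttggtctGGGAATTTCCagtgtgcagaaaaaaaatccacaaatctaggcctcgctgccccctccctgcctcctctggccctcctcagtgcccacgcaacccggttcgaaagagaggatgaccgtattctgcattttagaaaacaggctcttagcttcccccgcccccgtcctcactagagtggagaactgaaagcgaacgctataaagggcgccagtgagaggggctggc
BIRC3: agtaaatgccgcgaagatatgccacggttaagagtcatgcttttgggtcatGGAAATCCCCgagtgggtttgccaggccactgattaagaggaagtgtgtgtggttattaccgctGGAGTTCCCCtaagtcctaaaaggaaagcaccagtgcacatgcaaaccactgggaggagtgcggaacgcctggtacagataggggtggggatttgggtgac
NFKB1: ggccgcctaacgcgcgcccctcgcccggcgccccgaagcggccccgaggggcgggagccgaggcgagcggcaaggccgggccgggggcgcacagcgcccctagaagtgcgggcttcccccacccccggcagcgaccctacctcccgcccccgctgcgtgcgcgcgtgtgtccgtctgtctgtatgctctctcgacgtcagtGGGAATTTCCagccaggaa
The NFKBIA match began 81 bases before the RefSeq start, that of NFKBIZ 223 bases before it, those of BIRC3 199 and 135 bases before it and that of NFKB1 49 bases before it. For TNFAIP3 (chr6:137867188-137867217), REL (chr2:60881518-60881547) and NFKB2 (chr10:102394462-102394491 and chr10:102395674-102395703), all on the plus strand, the matches shown lie in annotated exons or reach into them, and 30 bases around each are given to place them. Further matches in NFKB2, 1 in an exon and 1 before it, and 1 in an exon at a second NFKBIZ start are not printed.
TNFAIP3: ctttGGAAAGTCCCgtGGAAATCCCCgggc
REL: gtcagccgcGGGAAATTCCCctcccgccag
NFKB2, upstream window: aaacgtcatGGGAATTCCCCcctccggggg
NFKB2, downstream window: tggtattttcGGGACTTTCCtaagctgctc
A match places the letters of the motif and does not show that a dimer binds there in these cells. Subunits and inhibitors both had matches, and NFKB1 and NFKBIZ held the same 10 letters, GGGAATTTCC.

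Per kilobase of exon, RELA had the highest mean level of the 10 genes in D0 fibroblasts, at 21.3 ± 4.97 CPM per kb (SD, n = 2), and NFKBIA the highest in D10 fibroblasts, at 44.4 ± 1.41. The D0 order went on with NFKBIA at 12.8 ± 0.834, NFKB2 at 8.93 ± 1.33, NFKBIZ at 5.54 ± 4.83, NFKB1 at 4.94 ± 0.108, NFKBIE at 4.92 ± 0.0663, RELB at 4.12 ± 0.00803, TNFAIP3 at 1.45 ± 0.849, BIRC3 at 0.361 ± 0.243 and REL at 0.165 ± 0.126 CPM per kb. At D0 the libraries of NFKBIZ overlapped with or spanned those of NFKB2, NFKB1, NFKBIE and RELB, those of NFKB1 overlapped with those of NFKBIE, and those of BIRC3 with those of REL, so these neighbours could not be ordered. At D10 the order was NFKBIA, NFKBIZ at 35.9 ± 31.8, RELA at 21.6 ± 2.9, TNFAIP3 at 18.5 ± 19.7, NFKB2 at 17.0 ± 1.08, RELB at 10.2 ± 0.967, NFKBIE at 6.71 ± 1.1, NFKB1 at 5.83 ± 0.422, BIRC3 at 0.836 ± 0.109 and REL at 0.255 ± 0.0969. At D10 the libraries of NFKBIZ spanned the levels of NFKBIA, RELA and NFKB2, those of TNFAIP3 the levels from RELA down to NFKB1, and NFKBIE overlapped with NFKB1, so these places are not fixed by the data. REL values are uncertain, since 43.3% of its exon bases are also annotated in AC010733.2 on the same strand.

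**Figure D1:**
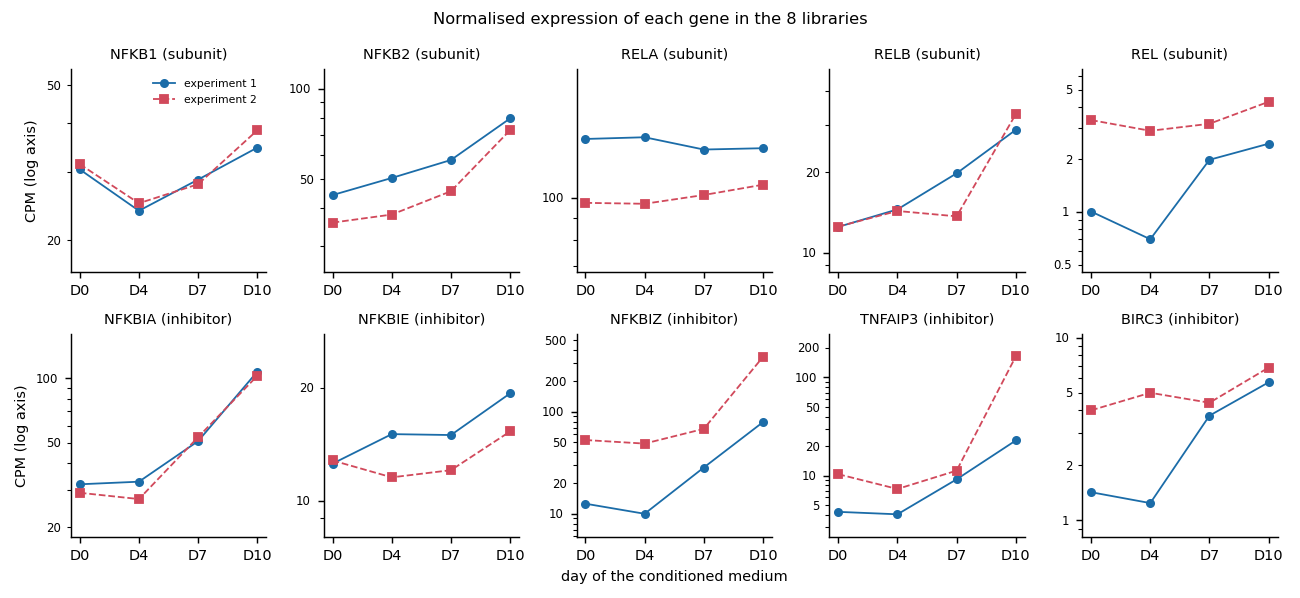
Expression of the 10 genes in each library, in CPM on a log axis, against the day of the conditioned medium, with circles for experiment 1 and squares for experiment 2. NFKBIA lies between 27.1 and 32.7 CPM at D0 and D4 and above 100 CPM at D10 in both experiments, whereas RELA stays between 96.9 and 137 CPM throughout.

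Among the feedback inhibitors, NFKBIA rose in D10 fibroblasts. It was the only 1 of the 10 genes to pass the test across all genes in the fit by group, which ignores the experiment. With the experiment as a block 5 of the 10 passed, where 4.99% of tested genes did. In DESeq2 3 passed, where 2.17% did. NFKBIA (chr14:35401511-35404749, minus strand) had 31.8 and 29.04 CPM in the D0 libraries, 32.7 and 27.1 in the D4 libraries, 50.8 and 53.0 in the D7 libraries, and 108 and 103 in the D10 libraries, in experiments 1 and 2. Both D7 libraries lay above all 4 libraries of D0 and D4, and both D10 libraries lay above the D7 libraries. The rise at D10 was 1.79 ± 0.20 on the log2 scale (SE), or 3.46-fold, with an adjusted p of 0.0225 in edgeR's quasi-likelihood test, where 0.290% of all tested genes were called, 0.196% upward. Within experiments it was 3.38-fold (95% interval 3.02 to 3.80) and 3.54-fold (3.17 to 3.97), intervals that cover counting error only. At D7 the difference from D0 was 0.77 ± 0.20, with an adjusted p of 0.490 and, with the experiment as a block, 0.0390. The D10 call did not hold in 5 of the 8 fits that left out 1 library, namely either D0 library, either D7 library or D10 replicate 2, where the change stayed between 1.72 and 1.86 and the adjusted p reached 0.244. It did not hold either when only D0 and D10 were fitted, with 1.80 and an adjusted p of 0.115. That fit called 0 of all tested genes. With the experiment as a block the D10 adjusted p of NFKBIA was 0.000466, and in DESeq2 it was 4.32e-09.

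NFKBIZ (chr3:101827991-101861022, plus strand) had 12.6 and 52.8 CPM in the D0 libraries, 10.0 and 48.8 in the D4 libraries, 28.4 and 68.0 in the D7 libraries, and 79.1 and 344 in the D10 libraries. Both D10 libraries lay above the other 6, but experiment 2 was the higher one on all 4 days, and the D10 library of experiment 1 was close to the D7 library of experiment 2. Within experiments the D10 values were 6.29-fold (5.30 to 7.52) and 6.52-fold (6.02 to 7.06) those at D0, so the change was alike in both while the level was not. The fit by group, which counts the gap between experiments as spread, gave 2.69 ± 1.02 and an adjusted p of 0.498, and the fit with the experiment as a block gave 2.67 ± 0.24 and 0.000806. Without D10 replicate 2 the value was 1.27, and without D0 replicate 2 it was 4.07.

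TNFAIP3 (chr6:137867188-137883312, plus strand) showed the largest fitted D10 difference of the 10 genes and, at D10, the widest gap between experiments. It had 4.27 and 10.3 CPM in the D0 libraries, 4.04 and 7.31 in the D4 libraries, 9.17 and 11.2 in the D7 libraries, and 22.8 and 164 in the D10 libraries, the last 2 values from 288 and 2077 counts. The D10 libraries were the highest, and the 1 of experiment 2 was 7.18-fold above that of experiment 1, where the D0 libraries were 2.42-fold apart. Within experiments the values at D10 were 5.34-fold (3.95 to 7.34) and 15.8-fold (13.4 to 18.9) those at D0, intervals that do not overlap. The fit by group gave 3.67 ± 0.88 and an adjusted p of 0.151, and with the block 3.40 ± 0.52 and 0.00827. Without D10 replicate 2 the value was 1.64, with an adjusted p of 0.568, and without D10 replicate 1 it was 4.49, with 0.0171. A share of 1.88% of its exon bases is covered by AL357060.1 on the other strand.

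NFKBIE and BIRC3 did not pass the test in any of the fits made. NFKBIE (chr6:44258166-44265788, minus strand) had 12.6 and 12.8 CPM in the D0 libraries, 15.1 and 11.6 in the D4 libraries, 15.0 and 12.1 in the D7 libraries, and 19.3 and 15.3 in the D10 libraries. The D10 libraries were the 2 highest, and the D10 difference of 0.45 ± 0.26 had an adjusted p of 0.860, or 0.247 with the block. BIRC3 (chr11:102317450-102339403, plus strand) had 1.42 and 4.00 CPM in the D0 libraries, 1.24 and 4.995 in the D4 libraries, 3.74 and 4.40 in the D7 libraries, and 5.70 and 6.86 in the D10 libraries, from 16 to 87 counts per library. The D10 libraries were again the highest, by 4.00-fold (2.33 to 7.24) in experiment 1 and 1.71-fold (1.21 to 2.45) in experiment 2. The fitted difference was 1.20 ± 0.67, with an adjusted p of 0.834, or 0.152 with the block. It was 0.65 without D0 replicate 1 and 2.13 without D0 replicate 2.

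Of the subunits, RELB and NFKB2, the pair of the non-canonical pathway, had the largest differences with little spread between experiments. RELB (chr19:45001430-45038198, plus strand) had 12.5 CPM in both D0 libraries, 14.5 and 14.3 in the D4 libraries, 19.8 and 13.7 in the D7 libraries, and 28.7 and 32.9 in the D10 libraries. Both D10 libraries lay clear of the others, whereas at D7 only experiment 1 stood well above D4. Its D10 difference was 1.30 ± 0.25, or 2.46-fold, with an adjusted p of 0.0834 in the fit by group, 0.00860 with the block and 0.00402 in DESeq2. NFKB2 (chr10:102394110-102402529, plus strand) had 44.2 and 35.8 CPM in the D0 libraries, 50.4 and 38.1 in the D4 libraries, 57.9 and 45.6 in the D7 libraries, and 79.6 and 72.8 in the D10 libraries. It was higher on each day than on the one before in both experiments, and the D10 libraries did not overlap with the others. Its D10 difference was 0.93 ± 0.24, or 1.90-fold, with an adjusted p of 0.191, and 0.94 ± 0.13 with 0.00590 under the block.

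The canonical subunits showed smaller differences. NFKB1 (chr4:102501329-102617302, plus strand) had 30.4 and 31.4 CPM in the D0 libraries, 23.8 and 24.9 in the D4 libraries, 28.6 and 27.9 in the D7 libraries, and 34.6 and 38.3 in the D10 libraries. The replicates lay close together, the D4 libraries were the lowest and the D10 libraries the highest. The D10 difference of 0.24 ± 0.19 had an adjusted p of 0.998, and that at D4, -0.34 ± 0.19, had an adjusted p of 1. RELA (chr11:65653596-65663094, minus strand) had 136 and 97.3 CPM in the D0 libraries, 137 and 96.9 in the D4 libraries, 128 and 101 in the D7 libraries, and 129 and 107 in the D10 libraries. Experiment 1 was higher on all 4 days, and within each experiment no day stood apart from D0 by more than 1.10-fold. The D10 difference of RELA was 0.02 ± 0.28, with an adjusted p of 0.998. With the block, which sets the gap between experiments aside, it was 0.03 ± 0.14 and 0.932. REL (chr2:60881521-60931610, plus strand) had 1.01 and 3.35 CPM in the D0 libraries, 0.698 and 2.91 in the D4 libraries, 1.99 and 3.19 in the D7 libraries, and 2.45 and 4.26 in the D10 libraries, from 9 to 54 counts per library. Its D0 and D10 libraries overlapped, and the difference of 0.61 ± 0.75 had an adjusted p of 0.998. It was 0.01 without D0 replicate 1 and 1.72 without D0 replicate 2. Within experiments REL at D10 was 2.44-fold (1.22 to 5.22) and 1.27-fold (0.843 to 1.93) its D0 level, and the second interval includes no change.

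Set side by side, the inhibitors had larger D10 differences than the subunits, with overlap between the classes. At D10 all 5 inhibitors and 3 of the 5 subunits lay above D0 without overlap, where 15.0% of all tested genes did. In both experiments 9 of the 10 genes were higher at D10 than at D0, all but RELA, against 31.1% of tested genes. The median log2 difference was 1.79 for the inhibitors and 0.61 for the subunits, a gap of 1.18, and the median of all tested genes was 0.004. The gap was 1.04 within experiment 1 and 1.49 within experiment 2. RELB exceeded NFKBIE and BIRC3, and NFKB2 and REL exceeded NFKBIE. The fit by group called 1 inhibitor and no subunit, and the fit with the block called 3 inhibitors and 2 subunits, all 5 upward, where it called 4.99% of all tested genes, 2.54% upward. DESeq2 called NFKBIA, TNFAIP3 and RELB, where it called 2.17%. The 10 genes are not replicates of their classes, so the gap was not tested.

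**Figure D2:**
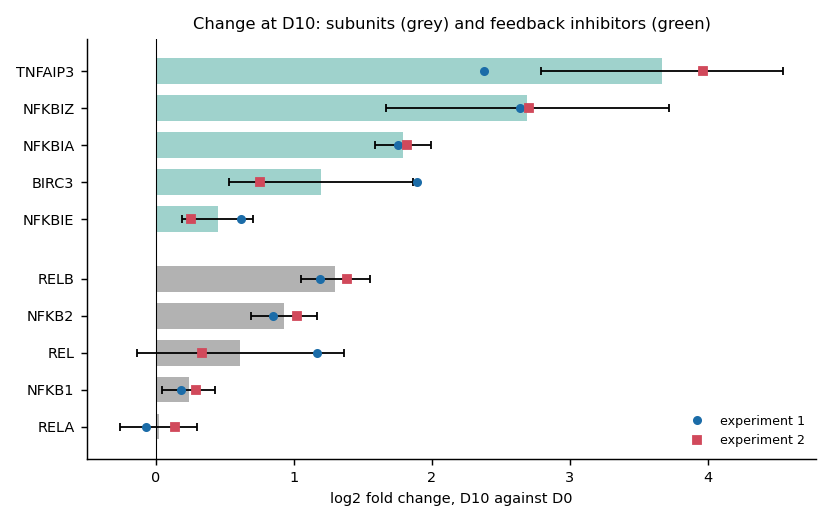
Log2 fold change at D10 against D0 for each gene, with green bars for the feedback inhibitors, grey bars for the subunits, lines for the standard error of the fit, circles for experiment 1 and squares for experiment 2. The bars of TNFAIP3, NFKBIZ and NFKBIA are the longest, RELB at 1.30 exceeds BIRC3 at 1.20, and RELA lies at 0.02 with its experiments on either side of 0.

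The earlier media gave smaller differences. At D4 none of the 10 genes passed the fit by group (0% of tested genes called, 0 of the 10 at an unadjusted p under 0.05), the fit with the block (0.275%) or DESeq2 (0.287%). At D4 the class medians were 0.005 for the subunits and -0.02 for the inhibitors. NFKB1 was the only 1 of the 10 whose D4 libraries lay below those of D0 without overlap, where 12.6% of tested genes did, and RELB the only 1 above, where 9.73% did. At D7 none passed the fit by group (0% called, 1 of the 10 at an unadjusted p under 0.05) or DESeq2 (0.785%), and NFKBIA passed with the block (1.25%). The D7 medians were 0.24 for the subunits and 0.56 for the inhibitors, a gap of 0.69 in experiment 1 and 0.07 in experiment 2. The D7 gap turned to -0.22 without D0 replicate 1 and was 1.03 without D0 replicate 2. In experiment 1 the D7 values of NFKBIZ, TNFAIP3 and BIRC3 were 2.26-fold, 2.14-fold and 2.63-fold those at D0, and in experiment 2 they were 1.29-fold, 1.09-fold and 1.10-fold. From D7 to D10 all 10 genes were higher in both experiments, against 27.7% of tested genes, and the 5 inhibitors and 3 subunits did not overlap, against 13.7%. RELA was higher by only 1.01-fold in experiment 1 and 1.05-fold in experiment 2, and REL went from 26 and 42 counts to 31 and 54. None of the 10 passed that step in the fit by group (0% called, 4 of the 10 at an unadjusted p under 0.05). With the block NFKBIA passed at 1.02 ± 0.14, with an adjusted p of 0.0242, and NFKBIZ at 1.89 ± 0.23, with 0.0176, where 0.319% of tested genes were called. DESeq2 called NFKBIA and TNFAIP3 for that step, with adjusted p-values of 0.0240 and 0.00239, where 0.446% were called.

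Ratios of counts within a library do not depend on how libraries are scaled, and they were added after the values had been seen. Counts of NFKBIA in the D0 libraries of experiments 1 and 2 were 0.235 and 0.298 of those of RELA, against 0.239 and 0.280 at D4, 0.395 and 0.523 at D7, and finally 0.832 and 0.962 at D10. The ratio of NFKBIA counts to RELA counts was thus near its D0 level at D4 and above it in both experiments at D7 and D10. These are ratios of read counts, not of protein, and are not corrected for exon length. Per kilobase of exon, the mean D10 levels were 44.4 CPM for NFKBIA and 21.6 CPM for RELA. RELB counts were 0.0920 and 0.129 of those of RELA at D0 and 0.222 and 0.308 at D10. For TNFAIP3 the ratio to RELA went from 0.0315 and 0.106 at D0 to 0.176 and 1.53 at D10, and for NFKBIZ from 0.0926 and 0.543 to 0.611 and 3.22. Within the IκB family, NFKBIA counts were 2.53 and 2.27 times those of NFKBIE at D0 and 5.57 and 6.73 times at D10. Between the precursors, NFKB2 counts were 1.45 and 1.14 times those of NFKB1 at D0 and 2.30 and 1.90 times at D10.

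**Figure D3:**
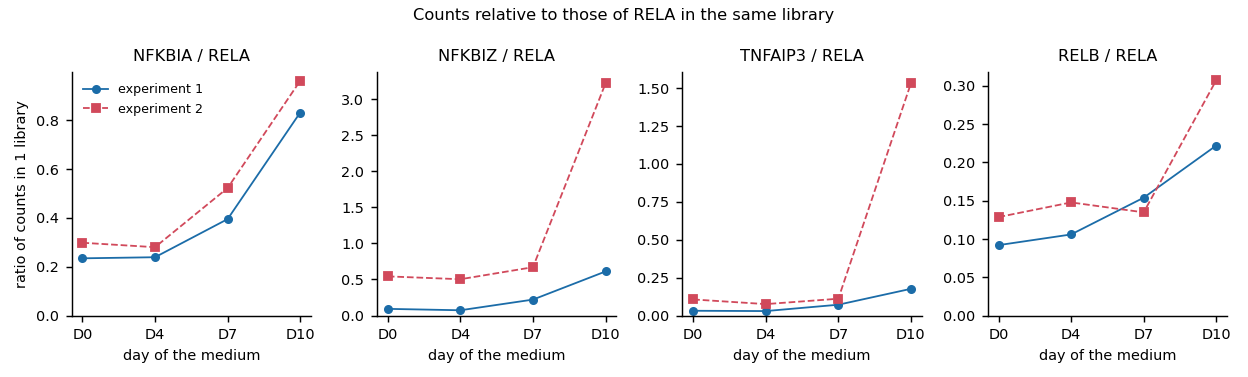
Counts of NFKBIA, NFKBIZ, TNFAIP3 and RELB divided by the counts of RELA in the same library, on linear axes that start at 0, against the day of the medium, with circles for experiment 1 and squares for experiment 2. The NFKBIA ratio reaches 0.832 and 0.962 at D10 with the experiments close together, while the TNFAIP3 ratio reaches 0.176 in experiment 1 and 1.53 in experiment 2. The ratios are of read counts, not of protein, and are not corrected for exon length.

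The 10 genes differed in how far their level depended on the experiment, a comparison added after the values had been seen. In the blocked fit of all 8 libraries, 34.8% of tested genes were called between the experiments, and 5 of the 10 were among them. NFKBIZ was 3.80-fold higher in experiment 2 (log2 1.93 ± 0.17, adjusted p = 0.000550), TNFAIP3 2.69-fold (adjusted p = 0.0214) and REL 2.33-fold (adjusted p = 0.0138), each on 4 of 4 days. RELA was 1.32-fold (adjusted p = 0.0145) and NFKB2 1.23-fold (adjusted p = 0.0403) higher in experiment 1, also on 4 of 4 days. NFKBIA, NFKB1 and RELB had log2 differences between experiments of -0.10, 0.05 and -0.08, with adjusted p-values of 0.453, 0.689 and 0.674. With the means of the experiments removed, r of log2 CPM over the 8 libraries was highest, at 0.97, for NFKB2 with NFKBIA, NFKB2 with RELB and RELB with NFKBIZ. Other pairs came close, such as NFKBIA with NFKBIZ, RELB with TNFAIP3 and REL with BIRC3 at 0.96. The values of RELA with the other 9 lay between -0.33 and 0.42. These values describe 8 libraries that share their day of medium, and no p is given.

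The genes whose profile over the 8 libraries was most like the mean of the 5 inhibitors were CLDN12 (r = 0.987), PTGS2 (0.984), RNF145 (0.980), PEG10 (0.979) and LIF (0.975). Those most like the mean of the 5 subunits were CTSS (0.987), RNF145 (0.980), RHBDF2 (0.979), PEG10 (0.979) and ZC3H12A (0.978). RNF145 and PEG10 were in both lists. PTGS2 encodes the inducible cyclooxygenase and is itself a known NF-κB target. LIF encodes a cytokine of the interleukin-6 family, CTSS the protease cathepsin S and ZC3H12A the RNase Regnase-1, which degrades inflammatory transcripts. These are likenesses across libraries that share depth and day. The means of the experiments were not removed here, so differences between experiments enter these values as well.

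Of the 49 tested genes of the pathway that are neither among the 10 nor target genes, 2 passed at D10 in the fit by group, where 0.290% of all tested genes did, and 7 with the block, where 4.99% did. Of 11 kinases of the pathway, none passed the fit by group, and their median log2 difference was 0.20. MAP3K8, the kinase TPL2 that p105 holds inactive, had the largest difference, 1.65 with an adjusted p of 0.554, and MAP3K14, the kinase NIK that drives p100 processing, the lowest, -1.02 with 0.318, or 0.0311 with the block. IKBKB, the catalytic kinase IKKβ, had 55.3 and 55.5 CPM in the D0 libraries, 72.6 and 81.3 in the D4 libraries, 91.4 and 109 in the D7 libraries, and 100.2 and 99.7 in the D10 libraries. Its libraries of the later days all lay above those of D0, and its D10 difference of 0.85 had an adjusted p of 0.143, or 0.00999 with the block. Of 15 adaptors and ubiquitin ligases upstream, 1 rose, IRAK2, an adaptor kinase of Toll-like and interleukin-1 receptors, from 10.6 and 7.57 CPM at D0 to 53.6 and 51.3 at D10 (log2 2.53 ± 0.30, adjusted p = 0.0330). The lowest value of that list was that of MYD88, the adaptor upstream of IRAK2, at -0.54 with an adjusted p of 0.892, and the list had a median of -0.08. The 4 subunits of the ligase that marks IκB for degradation lay between -0.16 for SKP1 and 0.23 for BTRC, and none passed. The 3 other IκB proteins had a median of 0.56, from 0.20 for NFKBIB to 0.67 for NFKBID, and none passed.

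Of 17 other negative regulators, 16 were tested and ZC3H12A rose, from 6.70 and 8.73 CPM at D0 to 36.1 and 62.5 at D10 (log2 2.67 ± 0.37, adjusted p = 0.0434). The list's median was 0.05. With the block TNIP1, an A20-binding protein, and IRAK3, an inactive kinase that dampens receptor signalling, also passed, at 0.93 and 1.95 with adjusted p-values of 0.00701 and 0.0204. PDLIM2, a ubiquitin ligase for nuclear p65, had the lowest value, -0.72 with an adjusted p of 0.762, or 0.0445 with the block. Of 21 target genes, textbook examples chosen with earlier results of these data known, 20 were in the table and 16 were tested. At D10 3 of them rose, where 0.196% of all tested genes did, namely SOD2, the mitochondrial superoxide dismutase (167 and 224 CPM at D0, 850 and 1721 at D10, log2 2.71 ± 0.38, adjusted p = 0.0480), and the inflammatory mediators CXCL1 and IL1B. CXCL1 went from 3 and 2 counts in the D0 libraries to 365 and 1145 in the D10 libraries (adjusted p = 0.0181), and IL1B from 0 and 1 to 148 and 723 (adjusted p = 0.0379). CXCL1, IL1B, CXCL3 and CCL20 had at most 10, 4, 4 and 3 counts in any D0, D4 or D7 library. They passed the filter only through their D10 libraries. The p-values of CXCL1 and IL1B, and the counts and median of the 16 genes, partly reflect that selection. They also reflect how the list was chosen. All are descriptive, and the shares of all tested genes set beside them are no test. With the block 12 of the 16 passed, all upward, where 2.54% of all tested genes did, and 13 were higher in both experiments, against 31.1%. The median log2 difference of the target genes was 3.14, against -0.12 at D4 and 0.45 at D7. It stayed 3.14 with CXCL1, IL1B and CCL20, the genes with at most 3 counts in each D0 library, placed at their bound against 3 counts. These 3 genes lay above the median either way, so the median could not move and the other target genes were not checked by it. The largest fitted value was 9.70 for CXCL8, the chemokine interleukin-8 (adjusted p = 0.0656, 0.000746 with the block), and the lowest -0.79 for GADD45B, a stress sensor (adjusted p = 0.442). At D4 and D7 the fit by group called none of these lists' genes. With the block, 1 target gene was called lower at D4, where 0.275% of all tested genes were called. At D7 the block called 1 target gene higher and 1 lower, where 1.25% were called. It also called 1 kinase and 1 upstream adaptor or ligase higher at D7.

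**Figure D4:**
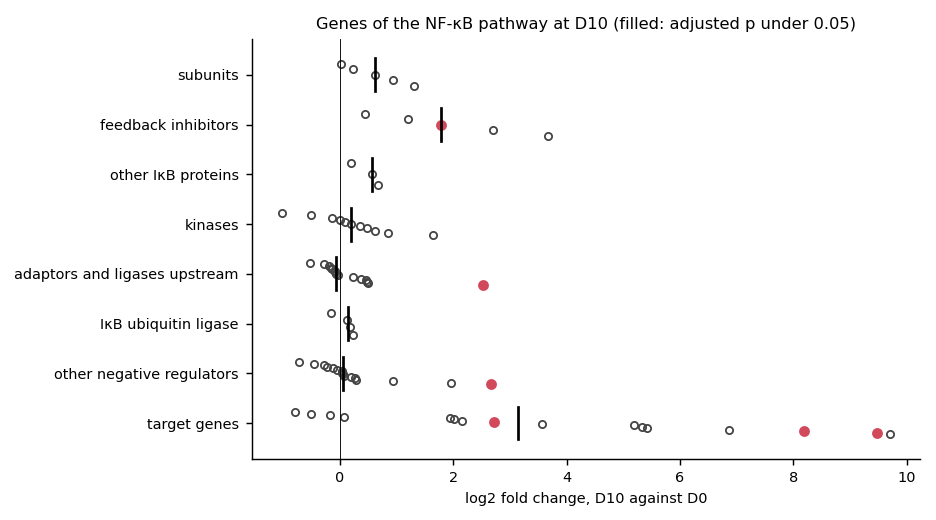
Log2 fold change at D10 against D0 for every tested gene of the NF-κB pathway by role, with filled points for an adjusted p under 0.05 in the fit by group and a vertical bar for the median of each role. The median is 3.14 for the target genes, 1.79 for the feedback inhibitors and 0.61 for the subunits, and lies between -0.08 and 0.56 for the other roles. CXCL1, IL1B and CCL20, with at most 3 counts in each D0 library, have fitted values that depend on how zero is handled.

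All 8 fibroblast markers were detected, and all 8 were lower at D10 than at D0 in both experiments, against 32.3% of tested genes, with a median of -0.86. None passed the fit by group, and PDGFRB and DCN passed with the block. Their summed level was 32609 to 46255 CPM at D0 and 9633 to 34111 CPM at D10, lowest in D10 replicate 2, the library in which NFKBIZ and TNFAIP3 were highest. Their part in the values of the 10 genes was not tested, and in bulk RNA fewer cells of a type and less RNA per cell cannot be told apart. Of 7 leukocyte markers 6 were in the table, with a summed level of 1.53 to 4.11 CPM at D0 and 2.60 to 3.40 at D10. PTPRC and ITGAM had at most 1 count per library, whereas CD14, CD68, LYZ and CSF1R reached 32, 12, 8 and 5. The epithelial markers EPCAM and CDH1 had at most 7 and 3 counts and the endothelial markers PECAM1, CDH5 and KDR at most 13, 5 and 3, whereas TEK, KRT18 and KRT8 reached 1522, 809 and 396 counts and made up most of the sums. The summed levels were 79.0 to 90.9 CPM at D0 and 78.0 to 122 at D10 for the 5 endothelial markers, and 55.5 to 79.5 and 45.7 to 49.2 for 4 of 5 epithelial markers. As a check for carried-over producer cells, HRAS had 54.3 and 37.9 CPM at D0 and 47.7 and 33.8 at D10, and ESR1 had 0 to 4 counts per library. Which RAS and receptor sequences the construct holds is not given in the sources used here.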

How the data were processed

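Per the study's methods, RNA of IMR90 recipients from 2 independent experiments was sequenced. The labels number the libraries of D0, D4, D7 and D10 medium as replicates 1 and 2. The table the authors deposited holds raw read counts per gene, which were used, and 8 columns in RPM, which were not. The submitters' processing notes name STAR 2.5, DESeq2 and GRCh38. The counter, annotation and strand setting are not given in the sources used here, so overlapping genes may share counts. The header of 1 column reads DO and was taken as D0 replicate 1. Positions come from GENCODE 29, matched by Ensembl identifier for 99.6% of genes. The identifiers of 8 of the 10 genes carry the same version there, and those of REL and NFKBIE another.

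Genes were filtered with filterByExpr, scaled with TMM and fitted by group over all 8 libraries with edgeR 4.0.16 (glmQLFit, glmQLFTest, R 4.3.3). P-values were adjusted by Benjamini-Hochberg over 13798 genes and called at 0.05. The study's methods name DESeq2 against day 0, and DESeq2 1.42.0 was an alternative. Log2 CPM for likeness used a prior count of 2. Within-experiment folds have exact binomial 95% intervals of counts.

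Replicate numbers were taken to mark the experiments, which the sources used here do not state. Libraries with the same number deviated together from the means of their groups, with r across genes from 0.418 to 0.722 in 6 of 6 pairs of groups. The blocked fit is therefore printed where it changes a call. The common dispersion was 0.0792 by group and 0.0242 with the block. Total counts of 11708193 to 13395912 set the precision, and a gene with 9 to 54 counts, such as REL, is known only coarsely. Other alternatives were to scale with DESeq2's size factors, to drop the filter, to require 10 counts in all libraries, to fit only the groups compared, to use a prior count of 0.5 and to leave out each library.

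The 10 genes, the pathway lists and the markers were chosen with earlier results of these data known. Named are the 10 genes, the largest rise and fall of each pathway list at D10 and members past the threshold, 5 genes most like each class, and HRAS and ESR1. IKBKB, TNIP1, IRAK3, VCAM1, PDGFRB, DCN, CCL20 and CXCL3 and the single markers given by their counts were named after their values were seen. The script was tested on simulated data. Figures were drawn with Python 3.11.15.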

Additional observations from a re-analysis of the deposited data

Results flagged for a closer look

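The changes listed here went one way in both experiments on 1 day and the other way in both on another. NFKB1 was at -0.34 at D4, -0.13 at D7 and 0.24 at D10 (log2 difference from D0). Its D10 value against D4, a comparison added after the values had been seen, was 0.58 ± 0.19 with an adjusted p of 0.644 by group and 0.0702 with the block. REL was at -0.28 at D4 and 0.61 at D10, and D10 against D4 gave 0.89 ± 0.76 with 0.974 by group and 0.239 with the block. NFKBIZ was at -0.16 at D4, 0.56 at D7 and 2.69 at D10, and D10 against D4 gave 2.85 ± 1.03 with 0.739 by group, and 2.88 ± 0.24 with 0.00133 with the block. TNFAIP3 was at -0.37 at D4, 0.48 at D7 and 3.67 at D10, and D10 against D4 gave 4.04 ± 0.90 with 0.286 by group, and 3.71 ± 0.54 with 0.0153 with the block. The adjusted p-values are from edgeR's quasi-likelihood test, which called 0.00725% of tested genes by group and 2.55% with the block. The differences between D7 and D4 were not tested. With 2 libraries per group no library was examined as an outlier.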

How the results depend on the processing

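The numbers of tested genes called at D4, D7, D10 and D10 against D7 were 0, 0, 40 and 0 in the fit by group, with 409, 599, 1095 and 489 genes at an unadjusted p under 0.05. They were 44, 112, 379 and 66 in DESeq2, 21, 93, 371 and 77 with no filter and 38, 172, 688 and 44 with the replicate block. At D10 there were 20 calls with at least 10 counts in every library and 0 with the compared groups only. Leaving out 1 library gave 0 to 155 calls at D10, most without D10 replicate 1, and 0 to 47 for D10 against D7, most without that library, while D4 and D7 kept 0. Of the 10 genes, 0 to 2 were called at D10 in these fits. Without a filter NFKBIA, RELB, NFKBIZ and TNFAIP3 were called at D10. The gap between the class medians ranged from 0.89 to 1.58 at D10, from -1.08 to 0.41 at D4 and from -0.22 to 1.03 at D7 with 1 library left out, and moved by less than its spread between experiments in the other alternatives. Of the 10 genes' log2 differences, those that changed sign did so only with 1 library left out. At D4 these ranges were -1.13 to 1.13 for BIRC3, -0.073 to 0.34 for NFKB2, -0.17 to 0.11 for NFKBIA, -0.14 to 0.25 for NFKBIE, -1.71 to 1.22 for NFKBIZ, -1.63 to 0.84 for REL, -0.27 to 0.27 for RELA and -0.86 to 0.41 for TNFAIP3. At D7 they were -0.068 to 0.24 for NFKBIE, -0.20 to 1.94 for NFKBIZ, -0.37 to 1.35 for REL, -0.24 to 0.24 for RELA and -0.021 to 1.25 for TNFAIP3. At D10 the range was -0.20 to 0.28 for RELA, and for D10 against D7 it was -0.076 to 0.75 for REL and -0.12 to 0.22 for RELA. The cause was not tested. REL fell below the filter of at least 10 counts in every library, which therefore gave no gap between the classes. For D10 against D4, added after the values had been seen, the replicate block also called NFKB2 (adjusted p from 0.554 to 0.0229), RELB (0.296 to 0.0303) and NFKBIA (0.0505 to 0.000850). The block changed no other call of the 10 genes than these and those given with the results and above. A prior count of 0.5 gave the same genes as most like each class. Depth limits REL and BIRC3 most, with 9 to 87 counts per library.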
